A study of Homo sapiens with 2 samples.

Results

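Telomerase and the proteins that bind telomeric DNA were described across 10 genes, TERT, DKC1, TEP1, TERF1, TERF2, TERF2IP, POT1, TINF2, ACD and WRAP53. The genes were taken by name, with every probe set that the annotation of the array assigns to 1 of them alone. This gave 18 probe sets for 8 of the genes, among 41091 such probe sets for 19775 genes on the array. TEP1 has no probe set assigned to it, and the 3 probe sets of DKC1 are assigned to several genes, so neither gene has values here. The genes were grouped with their values on these arrays already known, so their signals and ratios are a description and no test was made on them.
The RNA came from MEG-01, an established megakaryoblastic line of chronic myeloid leukemia (CML) that carries BCR-ABL, cultured in RPMI1640 with serum. Cells of the Venus group were transduced with the control lentivirus, which expresses the yellow fluorescent protein Venus. Cells of the GAS2DN group received the same vector with GAS2DN, a truncated, dominant negative form of growth arrest specific 2 under the spleen focus forming virus promoter, and both groups were sorted by fluorescence. RNA of 3 extracts per group was pooled in equal amounts and hybridised to 1 array, so the comparison is 1 array against 1 array, with no replicate of a condition and no p-value. The series asks which transcripts differ when GAS2 is inhibited by GAS2DN.
Telomerase adds the hexamer repeat of chromosome ends. TERT is its reverse transcriptase, DKC1 (dyskerin) holds the RNA subunit in a stable particle, and WRAP53 (TCAB1) directs that particle to Cajal bodies. Shelterin coats the repeats: TERF1 and TERF2 bind the double-stranded repeat, POT1 binds the single strand, ACD (TPP1) pairs with POT1 and recruits telomerase, TINF2 joins the parts and TERF2IP (RAP1) sits on TERF2. In most somatic cells TERT is silent, and most leukemia lines keep their telomeres by expressing it. In RNA of whole cultures, more cells with a transcript and more of it per cell cannot be told apart.

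The promoter of TERT is shown first because TERT was the 1 member with every probe set over 2-fold higher in GAS2DN cells, and that of POT1 because its main probe set had the lowest ratio among the members. Both are RefSeq sequence of GRCh38.p14, from 250 bases before to 50 bases after the start of the gene, 5′ to 3′ on the minus strand, at chr5:1295019-1295318 for TERT and chr7:124929776-124930075 for POT1. Capitals mark every E-box (CACGTG, the same on both strands) and every GC box (GGGCGG, or CCGCCC for the other strand), which are known to be bound by MYC with MAX and by SP1, respectively. No motif overlapped another.
TERT: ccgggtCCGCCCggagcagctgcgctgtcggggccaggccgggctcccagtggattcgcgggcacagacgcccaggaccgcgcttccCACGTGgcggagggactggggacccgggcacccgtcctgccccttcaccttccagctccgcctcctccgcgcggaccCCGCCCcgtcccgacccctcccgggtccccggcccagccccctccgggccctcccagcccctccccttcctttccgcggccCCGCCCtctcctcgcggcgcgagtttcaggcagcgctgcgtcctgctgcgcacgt
POT1: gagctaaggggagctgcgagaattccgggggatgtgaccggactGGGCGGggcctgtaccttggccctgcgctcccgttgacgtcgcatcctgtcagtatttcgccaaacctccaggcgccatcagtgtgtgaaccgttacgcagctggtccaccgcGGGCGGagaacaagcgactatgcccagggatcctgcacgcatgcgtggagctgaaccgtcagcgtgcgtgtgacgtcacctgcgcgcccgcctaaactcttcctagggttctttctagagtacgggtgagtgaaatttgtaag
The window of TERT holds 1 E-box and 3 GC boxes, and its content of G and C is 77.3%, against a median of 58.7% over 35116 promoters. It ends in cacgt, an E-box short of its last letter, and the base after it was not read. The window of POT1 holds 2 GC boxes and no E-box, and 60.3% of its bases are G or C. Promoters were listed for 8 of the 10 genes, all but TERF1 and TERF2, and these 8 genes had 11 promoters. An E-box was found in 1 of the 11, that of TERT, and in 7.26% of all promoters. A GC box was found in 9 of the 11, and in 45.0% of all promoters. These matches describe letters in a window and were not tested for binding.

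Values are MAS5 signals in linear units, each array being scaled to the same trimmed mean. The median signal was 55.6 for Venus and 69.1 for GAS2DN cells, and a signal below that of its array is called dim and any other bright. Probe sets with at least 1 bright signal were eligible, 24947 of the single-gene probe sets and all 18 of the members. The ratio is the GAS2DN signal over the Venus signal. The SD of the log2 ratio between probe sets of 1 gene, taken over all genes in the same of 10 bins of brightness, is given as the spread. It is taken around the mean of each gene, so a difference between cultures or arrays shared by all its probe sets is left out. The spread is therefore no replicate error, and a log2 ratio larger than it need not exceed that error. It was 0.25 in the brightest bin, and for the dimmer members 0.65, 1.02 and 1.67 in bins 6, 5 and 4 counted from the dimmest, and it includes true differences between transcripts. GAS2 itself was read by 1 probe set, dim on both arrays, with 24.3 and 34.7. The positions of its probes were not given, so whether they read the truncated GAS2DN is not known. The paper reports GAS2 protein in MEG-01 cells by immunofluorescence, so the dim signal is not read as absence.
The megakaryocytic label was set beside 12 markers, of which 10 had a probe set. ITGA2B and GP9, the platelet integrin alpha subunit and a von Willebrand receptor subunit, were bright on both arrays, as were 6 others, while the platelet chemokines PF4 and PPBP were dim on both. Among 5 granulocyte and monocyte markers, each read by its main probe set, MPO, ELANE and CD14 were dim on both arrays, LYZ was bright on both with 275 and 259, and CSF3R was bright in Venus alone with 169 and 21.4. By the same reading 3 of 5 erythroid and 1 of 3 lymphoid markers were bright on both. Of all 41091 single-gene probe sets 20496 were bright on both arrays, so such counts alone do not identify a cell type. Of 5 markers of fibroblasts and other adherent cells, the main probe sets of COL1A1, DCN and PDGFRB were dim on both arrays, that of KRT18 was bright on both, and that of COL1A2 was bright in GAS2DN alone with 41.0 and 111. Other probe sets of COL1A1 and DCN were bright on both arrays, that of COL1A1 with 284 and 402. All of these end in _x_at, which marks probes that can bind other transcripts, and the remaining probe sets of both genes were dim on both arrays.

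TERT had a higher signal in GAS2DN cells in both of its probe sets. The brighter one, 207199_at, had a signal of 77.4 in Venus and 193 in GAS2DN cells. The other, 1555271_a_at, whose suffix marks probes shared by transcripts of 1 gene, had 25.3 and 87.0. The first was above the median on both arrays and the second was dim on the Venus array. The ratios were 2.50 and 3.44, or log2 ratios of 1.32 with a spread of 0.65 and 1.78 with a spread of 1.02. Both log2 ratios were therefore larger than the spread between probe sets of their brightness.
The 2 probe sets differed from each other by 0.46 on the log2 scale. TERT was among 49 genes in which all eligible probe sets were over 2-fold higher, 0.760% of the 6450 genes with 2 or more of them. That share covers genes of every brightness. The probe set 1555271_a_at was eligible only through the GAS2DN array, so the filter itself fixed its direction. TERT is listed by the study among its selected genes from these arrays, so its ratios are no independent evidence.
The size of the TERT ratios rested on how low signals were treated. With signals under 62.4, the mean of the array medians, raised to that value, 207199_at kept its ratio of 2.50 because both signals lie above it, and 1555271_a_at had 1.40. With 62.4 added to every signal instead, the log2 ratios were 0.87 and 0.77. After a loess scaling, which removes the trend of the log2 ratio with brightness, the ratios were 2.24 and 2.73, both below 3.

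**Figure D1:**
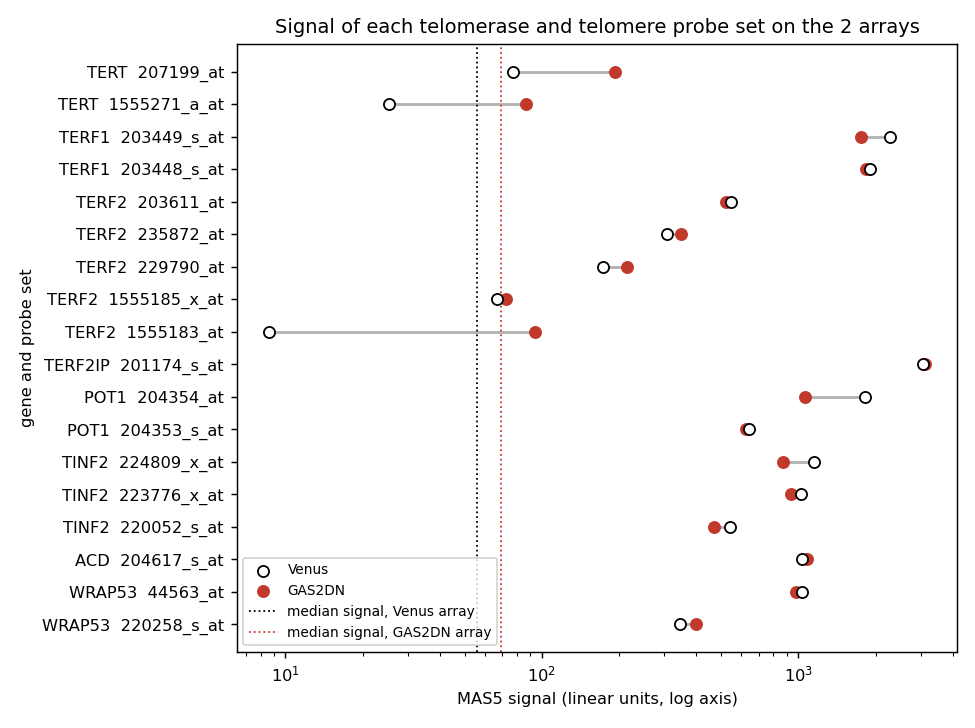
MAS5 signal (log axis) of the 18 probe sets on the Venus array (open circles) and on the GAS2DN array (red circles), with the median signal of each array as a dotted line. The grey bars are long for both probe sets of TERT, 1555183_at of TERF2 and 204354_at of POT1, and in most of the others the circles nearly coincide.

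The 6 shelterin genes had 14 probe sets, of which 13 were bright on both arrays, and all of these 13 were within 2-fold. So were 19807 of all 20496 probe sets bright on both arrays, so this count does not set shelterin apart. The median log2 ratio of the 14 was -0.04, against 0.05 over all 24947 eligible probe sets.
TERF2, the repeat-binding protein that keeps chromosome ends from being joined, was read by 5 probe sets that did not give 1 answer. The main one, 203611_at, had 545 in Venus cells against 523, a ratio of 0.960. The next, 235872_at, had 307 and 349, a ratio of 1.14. The third, 229790_at, had 173 and 214, a ratio of 1.24. These 3 lay close to equal signals, with log2 ratios of -0.06, 0.18 and 0.31 and spreads of 0.39, 0.47 and 0.47. The last 2 probe sets were both designed on 1 sequence record and yet differed. In 1555185_x_at the signals were 67.1 and 72.2, a ratio of 1.08. In 1555183_at they were 8.66 and 93.8, a ratio of 10.8, the largest ratio of any member. Its log2 ratio of 3.44 had a spread of 1.67, and with low signals raised the ratio was 1.50.
The lowest and highest log2 ratio of TERF2 lay 3.50 apart. A gap of over 3-fold between eligible probe sets of 1 gene was found in 18.9% of the 6450 genes. The difference in 1555183_at was thus carried by 1 of 5 probe sets, the one with the dimmest Venus signal among all 18.
TERF1, the other double-strand binding protein, which restrains telomere length, had 2281 and 1749 in 203449_s_at, a ratio of 0.767. In 203448_s_at it had 1900 and 1829, a ratio of 0.963. Both were lower in GAS2DN cells, and the first log2 ratio of -0.38 was slightly over its spread of 0.31. TERF2IP, the partner of TERF2, had 3057 and 3110 in its 1 probe set, a ratio of 1.02 and a log2 ratio of 0.03 with a spread of 0.25.

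POT1, the protein on the single-stranded end, had 1825 in Venus cells and 1064 with GAS2DN in its main probe set, 204354_at. In its other probe set, 204353_s_at, the signals were 640 and 626. The ratios were 0.583 and 0.977, so that 1 probe set was lower in GAS2DN cells and the other nearly level. The log2 ratio of -0.78 in the main probe set was 2.52 times its spread of 0.31. ACD, which holds POT1 and brings telomerase to the end, had 1034 and 1077 in 204617_s_at, a ratio of 1.04, well inside the spread.
TINF2, the hub of shelterin, had 3 probe sets, and all had a lower signal in GAS2DN cells. They went from 1156 to 871 in 224809_x_at, from 1028 to 940 in 223776_x_at and from 540 to 470 in 220052_s_at. The ratios were 0.753, 0.914 and 0.869, and only the first had a log2 ratio, -0.41, over its spread of 0.31. The suffix _x_at of the first 2 marks probes that can bind other transcripts.

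**Figure D2:**
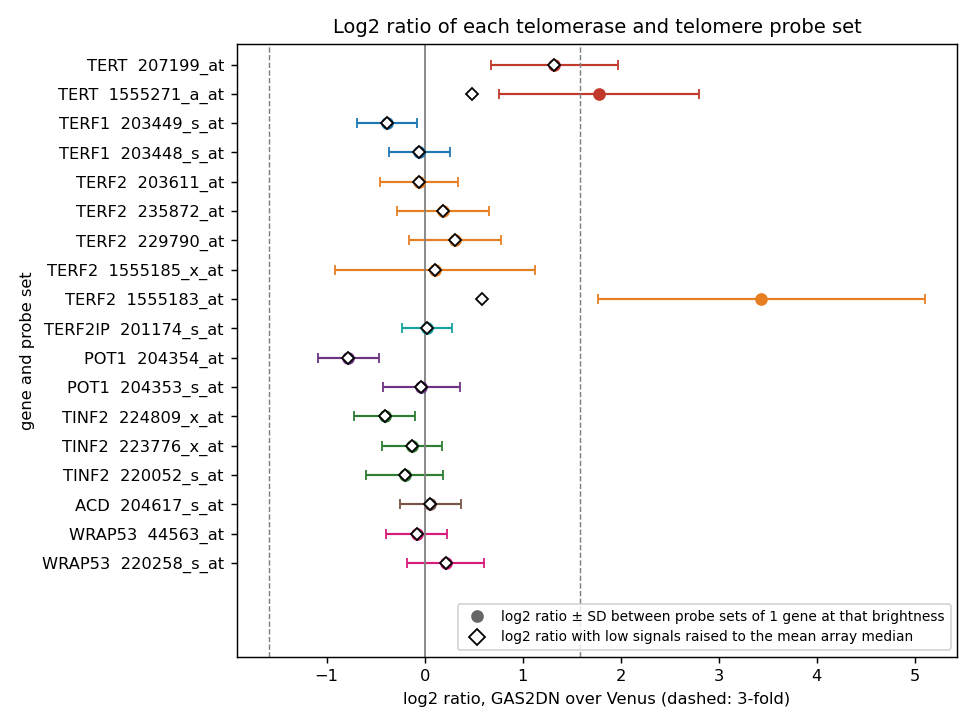
GAS2DN over Venus log2 ratio for each of the 18 probe sets (coloured circles), with the SD between probe sets of 1 gene at the same brightness as bars, and the ratio after raising low signals (open diamonds). Circle and diamond lie apart only in 1555271_a_at of TERT and 1555183_at of TERF2, the probe sets with a dim Venus signal.

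Of the telomerase particle beyond TERT, WRAP53 was measured. It had 1038 in Venus cells and 980 with GAS2DN in 44563_at and 345 and 400.4 in 220258_s_at. The ratios were 0.944 and 1.16, in opposite directions and both inside the spread.
Taking the 8 genes together, 9 of the 18 probe sets had a log2 ratio above 0, and so did 54.8% of all eligible probe sets. The median log2 ratio of the members was -0.004, against 0.05 over all. A ratio over 3 was found in 2 of the 18, 1 each of TERT and TERF2, and in 4.93% of all eligible probe sets. None was over 3-fold lower, as were 3.34% of all. Both of the high ones had a dim Venus signal and were eligible only through the GAS2DN array, where they are high. Among all probe sets with 1 dim signal, 27.0% were over 3-fold higher. That class also holds probe sets dim in GAS2DN alone, which cannot be over 3-fold higher, so the share is no measure for these. Among the 16 member probe sets bright on both arrays none was over 3-fold either way, where the share over all such probe sets was 0.444%. Only 207199_at of TERT was over 2-fold among the 16, a size that 1.75% of all such probe sets reached in that direction. That share is over probe sets up to the brightest bin, with a spread of 0.25, while 207199_at lies in bin 6, with 0.65. The share at its own brightness was not taken. With both signals bright, 14 of the 16 had a log2 ratio smaller than 0.5, and so did 79.8% of all probe sets bright on both arrays. The exceptions were 207199_at of TERT and 204354_at of POT1.
In 4 of the 6 genes with more than 1 probe set, TERT, TERF1, POT1 and TINF2, all probe sets had the same direction, and in TERF2 and WRAP53 they had both. Only in TERT were all of them higher. The filter fixed the direction of its dimmer probe set, which was eligible only through the GAS2DN array. In TERF1 and POT1 the shared direction rested on a second log2 ratio of -0.05 and -0.03, with spreads of 0.31 and 0.39. How many of all genes had probe sets in the same direction was not counted. The 4 genes are therefore not read as more than usual. The log2 ratio reached the spread of its brightness in 6 of the 18 probe sets, the 2 of TERT and 1 each of TERF1, TERF2, POT1 and TINF2. It was smaller than the spread in the other 12, which does not show that these signals were equal. The share of all eligible probe sets that reached their spread was not taken. The 6 are therefore not read as more than usual.

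**Figure D3:**
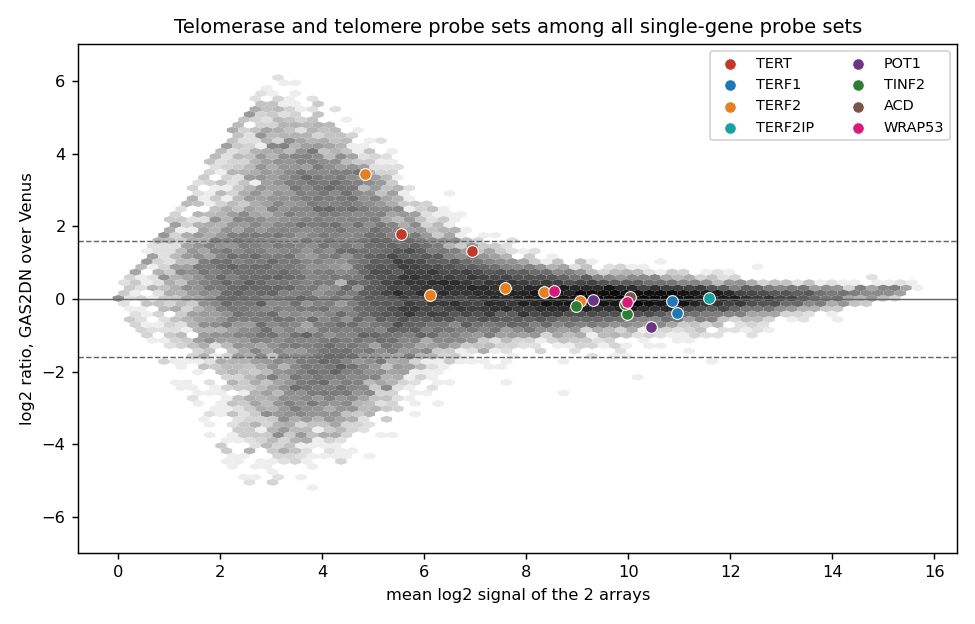
GAS2DN over Venus log2 ratio against the mean log2 signal of the 2 arrays for 41091 single-gene probe sets (grey, darker where denser) with the 18 members in colour. The cloud widens toward dim signals, where the high values of TERF2 and TERT lie, and 204354_at of POT1 lies at the lower edge of the narrow, bright part.

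The genes that build the telomerase particle were described by a list of 13, of which 12 had 20 eligible probe sets, 10 of them above 0 and 10 below. Their median log2 ratio was 0.01, and 18 of 20 were within 2-fold, as were 85.5% of all eligible probe sets. None was over 3-fold higher and 1 was over 3-fold lower, against 4.93% and 3.34% of all. NOP10, a core protein of the particle beside dyskerin, had the highest main probe set, with 16189 and 22880, a ratio of 1.41. NAF1, an assembly factor of the same particles, had the lowest, with 5778 and 2805, a ratio of 0.485, in its 1 probe set, which is of the _x_at kind. TGS1, the methyltransferase that modifies the cap of the telomerase RNA, had the 1 probe set over 3-fold lower, 236371_s_at, with 74.7 and 11.5, while its main probe set had 3215 and 3431, a ratio of 1.07. The remaining one, 219231_at, had 1378 and 730.2, a ratio of 0.530.
The accessory list of capping, replication and repair factors held 30 genes, of which 28 had 55 eligible probe sets, 24 above 0 and 31 below, with a median of -0.06. Within 2-fold were 51 of the 55. Over 3-fold were 1 higher and 1 lower, against 4.93% and 3.34% of all eligible probe sets. ZBTB48, a zinc finger protein that binds the telomeric repeat and limits its length, had the highest main probe set, with 203 and 371, a ratio of 1.83. ERCC4, the nuclease subunit XPF, had the lowest, with 416 and 219, a ratio of 0.527. HMBOX1, a homeobox protein of the double-stranded repeat, had 56.3 and 9.66 in 229541_at, a ratio of 0.171, but 1.50 in its main probe set. XRCC5, the larger subunit of the Ku heterodimer, had 32.3 and 98.6 in 232633_at, a ratio of 3.05, but 1.03 in its main probe set. The probe sets over 3-fold in these lists thus each had 1 dim signal and stood against a brighter probe set of the same gene that was within 2-fold.
Of 18 factors described at the TERT promoter, 17 had 41 eligible probe sets, 21 above 0 and 20 below, with a median of 0.08 and none over 3-fold. Over 3-fold either way were 2065 of all 24947 eligible probe sets. Of the 41, 37 were bright on both arrays, a class in which that share was 0.444%. The highest eligible main probe set was that of E2F1, the S-phase transcription factor, with 198 and 355, a ratio of 1.79, though its other probe set had 0.505. The lowest eligible one was that of MNT, a repressor that competes with MYC for MAX, with 1411 and 817, a ratio of 0.579. USF1 was dim on both arrays, with 29.3 and 8.75. For the E-box printed above, and chosen after their values were seen, MYC had 15845 and 17273, a ratio of 1.09, MAX had 6787 and 7700.1 in its main probe set, a ratio of 1.13, and its 4 other eligible probe sets had ratios of 0.848 to 1.45. MXD1, another partner of MAX that opposes MYC, had 231 and 381, a ratio of 1.65 in the main and 0.938 in its other eligible probe set.

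**Figure D4:**
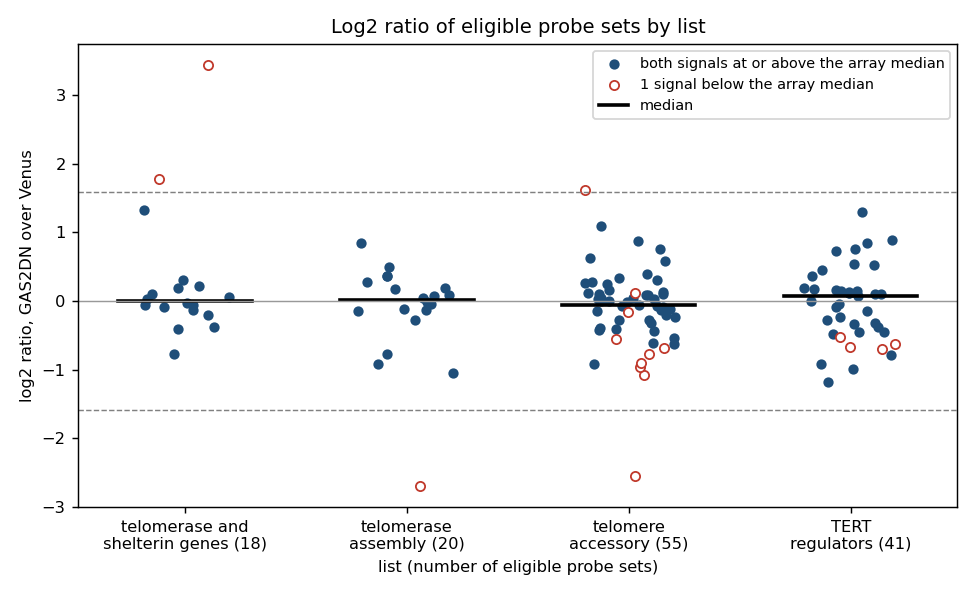
GAS2DN over Venus log2 ratio of the eligible probe sets of the telomerase and shelterin genes and of the 3 other lists, filled where both signals reached the array median and open where 1 was below it, with the median as a black line. All points beyond the dashed 3-fold lines are open, and the medians lie between -0.06 and 0.08.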

How the data were processed

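The authors hybridised pooled RNA of 3 extracts per condition to 1 Human Genome U133 Plus 2.0 array each and deposited log2 values of MAS5 signals, the version of MAS5 being not given in the sources used here. Signals were obtained as 2 to the power of the value. Both arrays had a 2% trimmed mean of 500.1. No detection calls were used. Probe sets were assigned through the annotation of the platform: of 54675, 62 were controls, 41091 had 1 gene, 1801 several and 11721 none listed. Symbols were updated through the gene identifier.

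As main probe set served the brightest of a gene by mean log2 signal, leaving out those ending in _x_at where another existed. The threshold was 3-fold, as in the paper. The spread was the pooled SD of log2 ratios between probe sets of 1 gene within each of 10 equal bins of mean log2 signal. The members and lists were chosen with earlier results of these data known. Named were all members and, of the 3 other lists, each gene with an eligible probe set over 3-fold and the highest and lowest main probe set, dim ones included. MNT, MYC, MAX, MXD1 and the cell type markers were named after their values were seen. The number of arrays limits the precision, and no test between conditions was possible.

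Other filters for dim probe sets, scalings, treatments of low signals and choices of probe sets were tried. Loess used a span of 0.2 and 3 iterations. The steps were tested on simulated data. The tools were statsmodels 0.14.6 for loess, numpy 2.4.6 and pandas 2.3.3 for the ratios and counts, matplotlib 3.10.9, scipy 1.17.1 and Python 3.11.15.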

Additional observations from a re-analysis of the deposited data

How the results depend on the processing

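Of 51 values of the members' main probe sets under another scaling, treatment of low signals or choice of probe set, 48 stayed within the spread between probe sets and 45 kept their sign. The sign changed in TERF2, TERF2IP, ACD and WRAP53, whose main values of -0.06, 0.03, 0.06 and -0.08 lie close to 0. Those that moved further were POT1, with -0.41 by the median over its probe sets and -0.03 by the second-brightest, and TERF1, with -0.05 by the second-brightest. Centring lowered all log2 ratios by 0.10, less than the smallest spread of 0.25, so centred values could not leave the spread. Raising low signals could change no main value, because both signals of every main probe set lie above the level used. Values fixed in this way are among the 51, so the counts of 48 and 45 overstate the stability of the main values. Over all single-gene probe sets the median amount by which the log2 ratio was lowered was 0.26 with loess and 0.27 with quantile normalization. The members' median log2 ratio was -0.03 after loess and -0.02 after quantile normalization. The 2 member probe sets over 3-fold higher became 1 after loess or quantile normalization, and 0 when both signals had to be bright, when the brighter signal had to reach percentile 75, with the mean array median added and with low signals raised. With the percentile 75 filter 3 of 12 member probe sets were above 0, and leaving out the _s_at and _x_at kinds 5 of 8, with a median log2 ratio of 0.25.

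In the assembly list the 1 probe set over 3-fold lower became 0 under both stricter filters, under both treatments of low signals and without _s_at or _x_at. In the accessory list, with 1 over 3-fold each way, there were 2 higher and 4 lower without a filter, 0 each way under both stricter filters and both treatments of low signals, and 0 higher after median centring, loess or quantile normalization. For the regulators 1 was higher and 1 lower without a filter and 0 otherwise. The cause of these changes was not tested. Signals near the array median limit every ratio of TERT. No paired analysis was possible because each condition has 1 array.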
